A study of Anas platyrhynchos with 2 samples.

Results

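Chromosome W carried 55 of the 11383 genes counted in a duck (Anas platyrhynchos) of the Fujian Longyan Shan-ma breed. They were chosen as the genes whose first listed exon lies on W. Expression was measured in 2 RNA-seq libraries with no replicates. Library B is labelled skin, muscle, ovary, spleen, heart, lung, eye, brain and kidney, and library A is labelled liver, pancreas, stomach, intestine and blood. The labels give neither sex nor age nor treatment. The series text names an adult female and an adult male, with testis in place of ovary in the male, and RNA from all tissues combined in equal amounts. How much of each library came from the male is not known, so no value below is a level in females. Library B held 41792653 counted reads and library A 20047449. In bulk RNA, fewer cells of a type and less RNA per cell cannot be told apart.

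Birds have Z and W sex chromosomes, females being ZW and males ZZ, so W is passed only from mother to daughter. The avian Z and W descend from an ancestral pair of autosomes. W stopped recombining with Z over most of its length and has lost most of its genes, while the survivors often keep a Z copy, called a gametolog. Birds lack a chromosome-wide shut-down of one Z in males of the kind known for the X of female mammals. In the chicken, the surviving W genes are known to include many regulators whose dose matters, and at least some W gene families exist in many copies.

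None of the 55 W gene IDs matched the reference table of 26024 duck genes, so the files and that table give no W gene a symbol or a function. Genes are therefore called here by their start on the study's own assembly, and partners on Z were sought by exon structure alone. Sequence was not compared, and the name of the genome build is not given in the sources used here. Levels are RPKM (reads per kilobase of exon, scaled to library size), computed from the deposited counts.

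The W genes lay between 391205 and 13701348, a stretch of 13.3 Mb with 4.13 genes per Mb in the table, against 6.69 per Mb over the 85.7 Mb stretch of Z. Gene IDs on W are numbered as far as 120, and 55 of those numbers (45.8%) are in the table, against 67.7% on Z, so spacing describes the genes in the table and not all genes that may lie there. The median gap between neighbouring W genes was 99.4 kb, against 21.8 kb on Z. Of 54 gaps on W, 7 were over 500 kb, and the widest ran for 1018 kb between 3730142 and 4748295. The plus strand carried 39 of 55 W genes (70.9%), against 46.4% of Z genes and 50.3% of autosomal genes. Outside the array of copies described further on, it carried 24 of 40.

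W genes had fewer exons than genes elsewhere. The median was 6 exons on W (quartiles 3 and 11), against 10 on Z and 9 on autosomes. At least 4 exons were present in 36 of 55 W genes (65.5%), against 88.1% of Z genes and 86.7% of autosomal genes. All 36 lie outside the array, where they make up 90% of 40 genes with a median of 7 exons. Genes outside the array were long, with a median span of 42.2 kb, against 25.7 kb on Z and 16.5 kb on autosomes. The gene with the widest span, at 5551202 to 5871544, stretched 7 exons over 320343 bp. The gene with most exons, at 2559657 to 2760057, had 47.

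Most W genes were expressed at low levels. The median was 1.84 RPKM on W (quartiles 0.648 and 4.38), against 7.44 RPKM on Z (3.10 and 14.6) and 9.66 RPKM on autosomes (3.77 and 23.2). It was 1.87 RPKM in library B and 1.81 RPKM in library A. These medians are not set per gene copy. Females carry a single W and males none, so RNA of the male would add to Z and autosomes only. Reads that map equally well to several places were not counted. The part of either in the low W levels was not tested. Of the 55 W genes, 34 (61.8%) reached 1 RPKM, against 93.0% of Z genes and 93.6% of autosomal genes. Only 4 (7.27%) reached the autosomal median, and by the mean of both libraries these same 4 also passed the autosomal upper quartile. The lowest of them, at 9587391, passed it narrowly, with 23.35 RPKM against 23.17 RPKM. In library B alone it had 23.02 RPKM. Without the array the W median was 2.26 RPKM. All 55 had at least 1 read in both libraries, the lowest being 1 read in each. The share of all counted reads that fell on W was 0.120% in library B (0.119% to 0.122%) and 0.121% in library A (0.119% to 0.123%), with 50330 reads in library B and 24198 in library A.

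**Figure D1:**
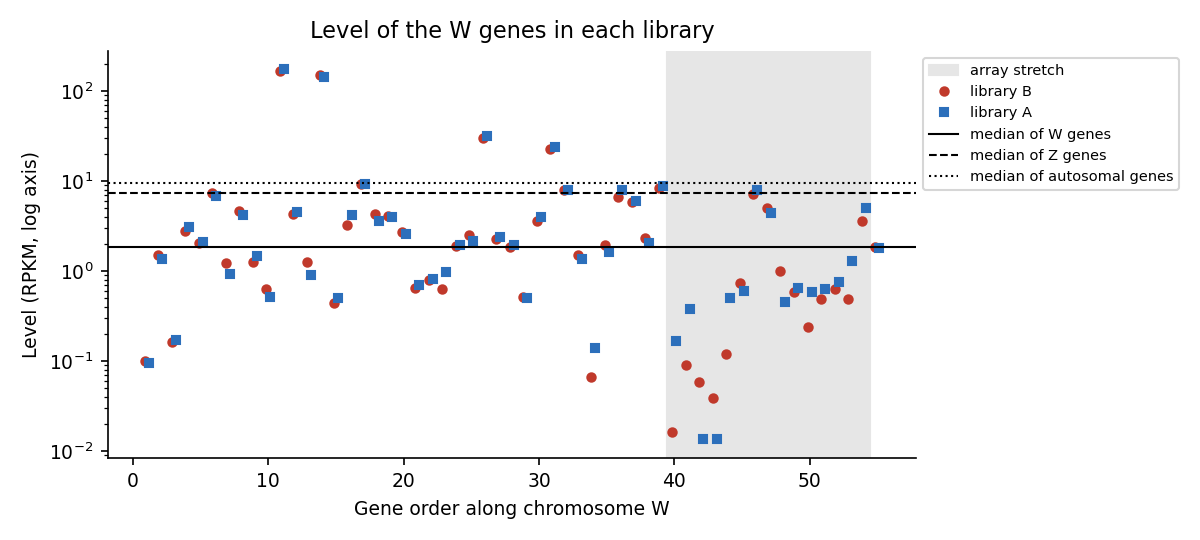
Level of each of the 55 W genes in RPKM (log axis), in gene order along W, with library B as circles and library A as squares. Horizontal lines mark the medians of W (1.84), Z (7.44) and autosomal genes (9.66), and the shaded stretch holds the 15 genes of the array stretch, whose copies are mostly below the W median.

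The reads on W were concentrated in a pair of genes. The gene at 2272243 to 2279728 (Apl_WG0000230, plus strand, 12 exons) had 168 RPKM in library B and 175 RPKM in library A. The gene at 3176560 to 3189868 (Apl_WG0000360, plus strand, 9 exons) had 153 RPKM in library B and 145 RPKM in library A. Together they took 42.2% of W reads in library B and 42.0% in library A. The next in order were the gene at 8325516 with 30.8 RPKM, the gene at 9587391 with 23.3 RPKM and the gene at 3553465 with 9.26 RPKM, as means of both libraries. These 3 had nearly the same level in both libraries, at 30.1, 23.0 and 9.25 RPKM in library B and 31.4, 23.7 and 9.27 RPKM in library A. The 3 lowest, all copies in the array, had 0.0262, 0.0359 and 0.0931 RPKM. The first gene on W, at 391205 to 396478, had a single exon and 0.0995 RPKM in library B and 0.0949 RPKM in library A. The last, at 13683681 to 13701348, had 6 exons and 1.87 RPKM in library B and 1.81 RPKM in library A.

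The W genes that differed between the libraries had few reads. Compared were the 48 W genes with 10 reads or more in either library. Of these, 0 were at least 2-fold higher in library B and 3 (6.25%) at least 2-fold higher in library A. Over all 11256 genes tested, 0.755% were at least 2-fold apart, 0.489% higher in library B and 0.267% higher in library A. With 1 library per label there is no test. Ratios carry 95% counting intervals from fragments (counts halved and rounded down, since mates were counted separately). The fitted ratios include a prior count of 2 and the intervals do not. The gene at 13235592 had 7 reads in library B and 14 in library A, a fitted ratio of 3.31 for A over B (1.12 to 29.4). The gene at 13157871 had 5 reads in library B and 10 in library A (ratio 3.07, 0.859 to 55.1), and the gene at 13470526 had 8 reads in library B and 10 in library A (2.21, 0.565 to 13.2). The intervals are wide, and the last 2 include equal levels. For the gene at 13235592 the 7 reads were rounded down on halving. The part of that rounding in its lower end of 1.12 was not tested, so it is not read as a difference. All 3 are copies in the array, and 0 of the 38 such W genes outside it were 2-fold apart. The 34 W genes with at least 100 reads in 1 library had log2 ratios of B over A between -0.37 and 0.46. By these ratios, which a prior count of 2 draws towards equality, 0 of the 48 W genes were 4-fold apart, against 0.133% of all genes tested (0.0888% higher in library B and 0.0444% higher in library A). With no prior count 2 of the 48 were, namely the genes at 13235592 (0.120 RPKM in library B and 0.505 RPKM in library A) and 13157871 (0.0914 RPKM in library B and 0.384 RPKM in library A). So were 2 array copies with too few reads to be compared. The copy at 13134375 had 1 read in library B and 5 in library A. The copy at 13188657 had 9 reads in library B and 1 in library A. The share of all genes 4-fold apart with no prior count is not given here. These counts therefore have no background and are not a result about W. With library B thinned to the depth of library A, the log2 ratio of B over A became -2.59 for the gene at 13157871, against -1.62 unthinned. It became -1.20 for the gene at 13235592, against -1.72, and -0.79 for the gene at 13470526, against -1.15, which ends its 2-fold call.

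Z genes with the same exon structure were found for a sizeable share of W genes. Exon lengths were read in the direction of transcription, the first and last exon were left out, and at least 4 exons were required. All inner exon lengths were equal to those of a Z gene for 8 of 36 W genes (22.2%), each with 1 Z gene and no Z gene shared. Among autosomal genes of at least 4 exons the share with such a Z gene was 0.262% (24 of 9147), and it was 0 of 186 on unplaced contigs. The 19 W genes with fewer than 4 exons could not be matched. None of the W genes with exactly 4 exons had an exact Z match, and the shortest matched gene, at 3697773, had 5 exons.

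The matched lengths show what an exact match means. The inner exons of the gene at 2272243 measured 79, 170, 174, 167, 149, 152, 225, 108, 145 and 151 bp, and those of the Z gene at 3440013 to 3447580 measured the same, exon by exon. The gene at 3176560 and the Z gene at 10909101 to 10920339 shared inner exons of 126, 134, 118, 71, 76, 63 and 70 bp. The gene at 3697773 and the Z gene at 11538784 to 11553953 shared only the 3 lengths 73, 120 and 109 bp. End exons differed throughout: neither the first nor the last exon had the same length in any of the 8 pairs. The first exon of the gene at 10437474 measured 1845 bp on W and 667 bp on Z, and the last exon of the gene at 7440658 measured 6159 bp on W and 3345 bp on Z.

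Looser rules added further matches. A run of at least 4 consecutive equal inner lengths was shared with a Z gene by 17 W genes, against 1.79% of autosomal genes. A further rule, chosen after the values were seen, asked for the same number of exons, at least 5, and at least 50% of inner lengths equal at the same position. With all rules together 24 of 36 W genes (66.7%) matched 23 Z genes, against 2.16% of autosomal genes. The Z gene at 3047079 was matched both by the W gene at 1686277 and by its neighbour of 6 exons at 1796211. The gene at 2559657 and the Z gene at 13104764 to 13271973 had 47 exons each and agreed in 42 of 45 inner lengths, 36 of them in a row. The gene at 8911645, with 36 exons, shared a run of 22 with a Z gene of 37 exons at 56828567 to 56883989.

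In the longer genes, most differences in length between matched W and Z exons were multiples of 3 bases, the length of a codon. In the 9 pairs with the same number of exons, at least 5, but not all inner lengths equal, 14 inner exons differed, and 13 of these differences (92.9%) were multiples of 3. The gene at 2559657 differed from its Z match by 3, -3 and -51 bp (W minus Z), and the gene at 3553465 by 3, -3 and -12 bp. The largest differences were -357 bp, for an exon of 6271 bp on W in the gene at 8472384, and 231 bp, for an exon of 315 bp on W in the gene at 3005147. The exception was the gene at 12798454, whose exon 2 measured 226 bp on W and 222 bp on Z. Left out by the exon minimum, which was set after the values were seen, were 4 pairs of 4-exon genes in which 1 of 2 inner lengths was equal. In these, 1 of 4 differences was a multiple of 3, which makes 14 of 18 (77.8%) with all 13 pairs.

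W genes were mostly expressed at a lower level than their Z matches. In the 8 exact pairs the median level was 4.19 RPKM on W and 13.6 RPKM on Z, and the median of W over Z was 0.303. By RPKM, 7 of the 8 W genes were below 0.5 times their partner. RPKM divides by annotated exon length, and the end exons differed in every pair. In reads alone the gene at 10437474 was above 0.5 times its partner. It had 525 reads on W and 953 on Z in library B, and 210 and 417 in library A. Counting intervals lay below 1 in all 8 pairs in both libraries, and they cover counting error only. Under the recorded settings a read that maps equally well to both copies is not counted, and the part of such reads in the result was not tested. RNA of the male would add to Z and not to W, and its share is not known. For comparison, of the 24 autosomal genes with an exact Z match 11 were below and 13 above it, with a median ratio of 1.06. Those ratios ranged widely, from 0.0861 to 69.0. The comparison is not a like one, since RNA of the male would add to autosomal genes but not to W. It also includes genes of 4 exons, which none of the exact W pairs has. Among them is the ratio of 69.0, where the Z gene had 0.0888 RPKM. Some Z genes enter it more than once, and some are also partners of W genes.

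The ratio varied widely among the exact pairs, while the intervals of library B and library A overlapped in each pair. The gene at 1181240 came nearest to its Z match, with 7.48 RPKM on W and 10.7 RPKM on Z in library B, and 6.87 RPKM on W and 9.78 RPKM on Z in library A. Its W over Z ratio was 0.698 in library B (0.624 to 0.779) and 0.702 in library A (0.591 to 0.829). By RPKM, the gene at 7440658 lay farthest below. In library B it had 1.91 RPKM on W and 14.7 RPKM on Z. In library A it had 1.94 RPKM on W and 14.5 RPKM on Z. Its ratio was 0.130 in library B (0.114 to 0.148) and 0.133 in library A (0.110 to 0.160). The intervals of these 2 genes do not meet, but the genes were chosen as the extremes of the exact pairs. The intervals cover counting error only, so this is a description. These ratios depend on annotated exon length, which was 7059 bp on W and 4343 bp on Z for the gene at 7440658. That gene had 565 reads on W and 2670 on Z in library B, and 273 and 1260 in library A. In reads alone the gene at 12608570 lay farthest below, with 286 on W and 2655 on Z in library B. In library A it had 121 and 1176, and its exons summed to 2943 bp on W and 6194 bp on Z.

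The abundant W genes were also below their Z matches. The gene at 2272243, with the levels given above, stood against 361 RPKM on Z in library B and 387 RPKM in library A, ratios of 0.466 in library B (0.453 to 0.480) and 0.453 in library A (0.434 to 0.471). The gene at 3176560 stood against 622 RPKM on Z in library B and 615 RPKM in library A, ratios of 0.246 in library B (0.237 to 0.255) and 0.235 in library A (0.223 to 0.248). The other 4 exact pairs had mean ratios of 0.350 for the gene at 1686277, 0.255 for the gene at 3697773, 0.428 for the gene at 10437474 and 0.222 for the gene at 12608570.

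With all structural rules the W value was the lower one in 24 of 24 pairs, with a median ratio of 0.370, but in 3 of them an interval included 1. The gene at 3553465 had 9.25 RPKM on W and 9.31 RPKM on Z in library B, and 9.27 RPKM on W and 9.42 RPKM on Z in library A. Its ratios of 0.993 in library B (0.917 to 1.08) and 0.983 in library A (0.875 to 1.10) had intervals that include 1. The gene at 2559657 had a ratio of 0.852 in library B (0.780 to 0.930) and 0.941 in library A (0.829 to 1.07). The gene at 822568 had 0.752 in library B (0.618 to 0.915) and 0.987 in library A (0.734 to 1.31). In the remaining 21 pairs the intervals of both libraries lay below 1. These ratios also depend on annotated exon length, which differed in both directions. For the gene at 9613294 it was 6277 bp on W and 2975 bp on Z. Its reads in library B were 2100 on W and 5218 on Z, with an RPKM ratio of 0.191. For the gene at 2559657 the length was 9165 bp on W and 12604 bp on Z. Its reads in library B were 1643 on W and 2651 on Z.

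**Figure D2:**
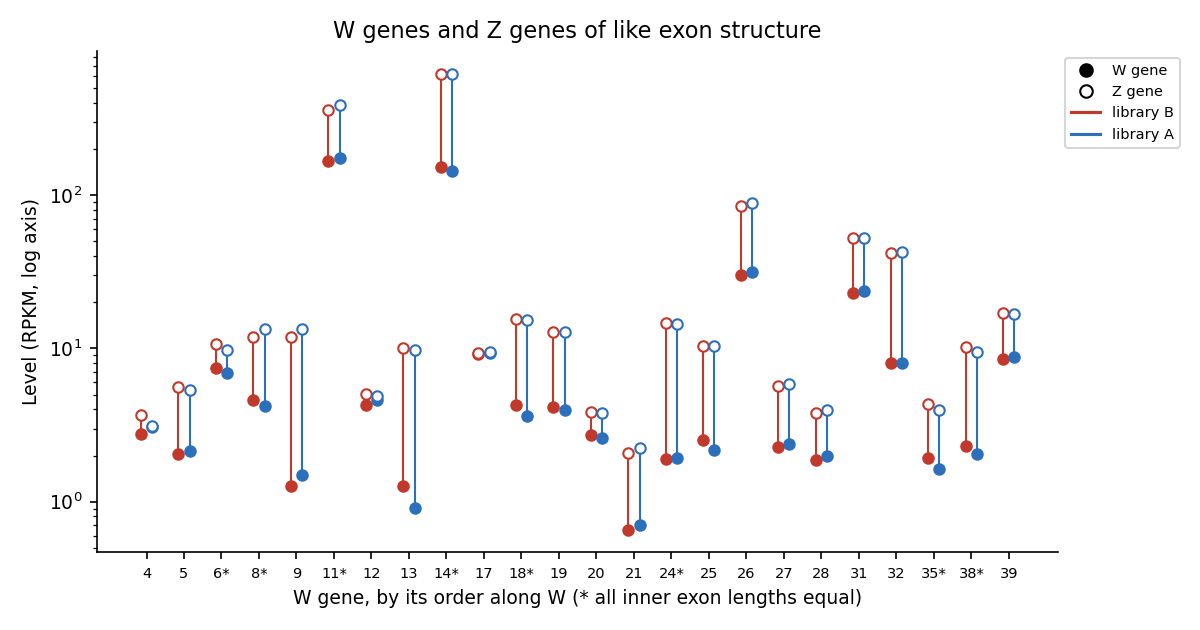
Level in RPKM (log axis) of the 24 W genes (filled) and their structural matches on Z (open) in library B and library A, ordered along W, with lines joining each pair and asterisks on the 8 exact pairs. The filled symbol is the lower one in every pair, nearly touching the open one for the gene at order 17, at 3553465.

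W genes with a Z match had a higher median level than the others, but exon number limited which genes could match. The median level of the 24 W genes with a Z match was 3.45 RPKM. It was 1.44 RPKM for the 12 others of at least 4 exons and 0.561 RPKM for the 19 with fewer exons, which could not be matched. Genes of exactly 4 exons could match only by equal inner lengths. The unmatched genes of at least 6 exons had 0.573, 1.43, 1.84, 3.83, 5.94 and 7.29 RPKM as means of both libraries. All 4 W genes above the autosomal median had a Z match. Matched Z genes, 23 in number, stood at a median of 10.3 RPKM, and the 482 other Z genes of at least 4 exons at 7.39 RPKM. Matched W genes also had more exons, with a median of 11 against 5 for the 12 without a match, and the part of exon number in this difference was not tested.

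The matched genes kept much of their order. Along W, the exact partners, which lie between 2683937 and 41236365, moved up Z in 6 of 7 steps, and Spearman's rho between the orders was 0.98 over 8 pairs. Over all 24 pairs rho was 0.92, a description of genes that share 2 chromosomes, with 15 steps up and 7 down. Small groups stayed together: the W genes at 822568, 865167 and 1181240 matched 3 Z genes in a row, starting at 2341825, 2383636 and 2683937. The W neighbours at 3553465 and 3697773 matched Z neighbours at 11477959 and 11538784. The W neighbours at 4748295 and 4892054 matched Z neighbours in the opposite order, at 19622883 and 19587721. Several genes were out of place. The match of the gene at 5551202 lay at 3924705 on Z, 49 in order, between matched genes whose partners were 179 and 214. The next W gene, at 6448292, had 4 exons and no match by the rules. It shared 1 of 2 inner lengths with the Z gene at 4718781, 50 in order. The match of the gene at 8911645 was 415 in order, between 242 and 325. The exact match of the gene at 10437474 was 187 in order, between 321 and 314. The strand was the same for W and Z in 14 of 24 pairs. No match lay beyond 56883989 on Z, where 27.6% of the Z genes of the table are.

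**Figure D3:**
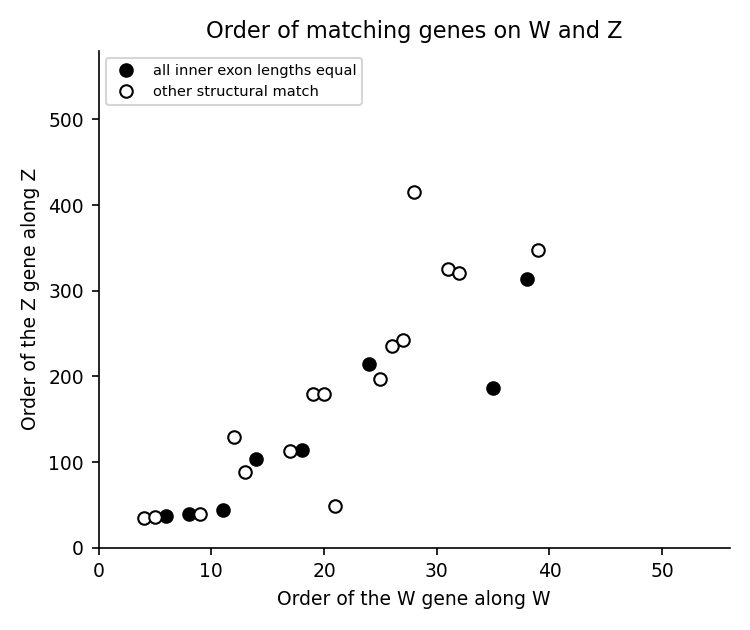
Order of each matched Z gene among the 573 Z genes (vertical axis) against the order of its W gene among the 55 W genes (horizontal axis), for 8 exact pairs (filled) and 16 other structural matches (open). Points rise from lower left to upper right, and the open point near the bottom at order 21 is the gene at 5551202.

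Introns of W genes were longer in sum than those of their Z matches, mainly through a limited number of long introns. In the 8 exact pairs the 73 introns summed to 535 kb on W and 370 kb on Z, a ratio of 1.44, yet the median ratio of single introns was 1.01. The W intron was the longer in 42 of 73 (57.5%). At least 2-fold longer on W were 14 introns, and at least 2-fold longer on Z were 4. Over all 24 pairs 239 introns were compared, with 1480 kb on W and 1099 kb on Z, and 17 were longer on W by at least 10 kb, against 2 on Z. The intron sum was larger on W in 19 of 24 pairs, with ratios from 0.822 to 3.34. The figures for 24 pairs include the gene at 1796211. Its 3 compared introns equal 3 of the gene at 1686277 and were set against the same Z introns. In the gene at 8472384, intron 3 measured 43799 bp on W and 3863 bp on Z between exons of equal length. Exactly equal were 4 introns, of 145, 611, 807 and 77 bp.

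**Figure D4:**
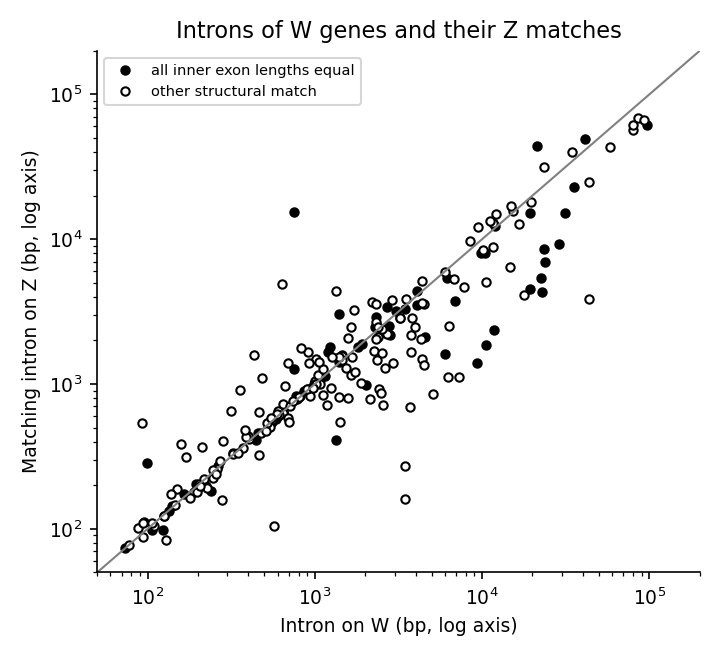
Length of 239 introns of W genes (horizontal axis) and of the matching introns on Z (vertical axis), both in bp on log axes, for exact pairs (filled) and other structural matches (open), with the line of equality. Most points hug the line, and those far below it are introns that are longer on W.

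Some W genes also matched genes on autosomes. All inner lengths of the gene at 3176560 were shared by its Z match and by a gene on chromosome 29 at 2490207 to 2499328, with 149 RPKM on W, 619 RPKM on Z and 219 RPKM on chromosome 29. The gene at 12608570 likewise matched chromosome 29 at 236681 to 251969, with 2.19 RPKM on W, 9.86 RPKM on Z and 34.1 RPKM on chromosome 29. Of the 24 autosomal genes with an exact Z match, 8 lay on chromosome 11, 7 on chromosome 29 and 4 on chromosome 26. By a run of at least 4, the genes at 1686277, 4892054, 7440658 and 8911645 also matched autosomal genes. Their autosomal runs were of 7, 4, 4 and 10 lengths, against 12, 9, 7 and 22 with their Z matches. The gene at 10170399 to 10318996, with 20 exons, had no Z match and shared a run of 11 lengths with a gene of 22 exons on chromosome 8 at 25283171 to 25301638. It had 1.43 RPKM, against 5.48 RPKM for the gene on chromosome 8. The gene at 11683611, with 25 exons and 5.94 RPKM, and the gene at 11145077, with 7 exons and 7.29 RPKM, matched no Z gene by any of the rules.

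W also held genes of few exons that repeat part of the exon structure of a neighbour on the opposite strand. The gene at 1796211 to 1871570 (plus strand, 6 exons) had inner exons of 475, 85, 51 and 91 bp. These equal exons 2 to 5 of the 14-exon gene at 1686277 to 1738423 on the minus strand, 57787 bp away, and no autosomal gene of at least 4 exons held that run. The 3 introns between these exons, of 3226, 642 and 125 bp, were also equal in both genes, as was the first exon of 79 bp. The gene at 1796211 had 1.26 RPKM in library B and 1.49 RPKM in library A. Its neighbour had 4.63 RPKM in library B and 4.22 RPKM in library A. Under the recorded settings a read that maps equally well to both genes is not counted. The part of such reads in these levels, and in the ratios of both genes to their Z match, was not tested. The gene at 10411959 to 10420139 (plus strand, 4 exons) had inner exons of 177 and 147 bp, as do exons 6 and 7 of the 14-exon gene at 10437474 on the minus strand, 17334 bp away. It had 2 reads in each library, and 3 autosomal genes (0.0328%) held the same 2 lengths in a row. No pair of W genes with at least 4 exons shared all inner lengths.

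Near the end of the gene-bearing stretch W carried an array of 14 genes of one structure. They lay at 13134375 to 13570782, all on the plus strand, each with 3 exons, a middle exon of 106 bp and a second intron of 704 bp. Intron 1 ranged from 1918 to 2216 bp, the first exon from 137 to 173 bp, and the last exon from 120 to 3412 bp. Of 13 steps from one gene start to the next, 7 fell between 23.438 and 23.496 kb, and the others between 21.1 and 97.0 kb. A gene of 2 exons at 13361475 to 13369365 lay between copies and had 0.623 RPKM. Elsewhere in the genome, 3 other genes had 3 exons with a middle exon of 106 bp, on chromosomes 2, 3 and 14, and 0 of them had the 704 bp intron.

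The array copies were unequal in reads. Together the 14 had 479 reads in library B and 271 in library A. The copies at 13282490, 13329350 and 13567561, chosen by their reads, held 78.1% of these in library B and 73.1% in library A. They had 175, 110 and 89 reads in library B and 92, 46 and 60 reads in library A. The other 11 had 1 to 23 reads in library B and 1 to 14 in library A, and at most 0.886 RPKM. The same copies were thus the highest in both libraries. Under the recorded settings multi-mapping reads go uncounted, so copies alike in sequence could lose reads, and the part of this in the result was not tested.

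**Figure D5:**
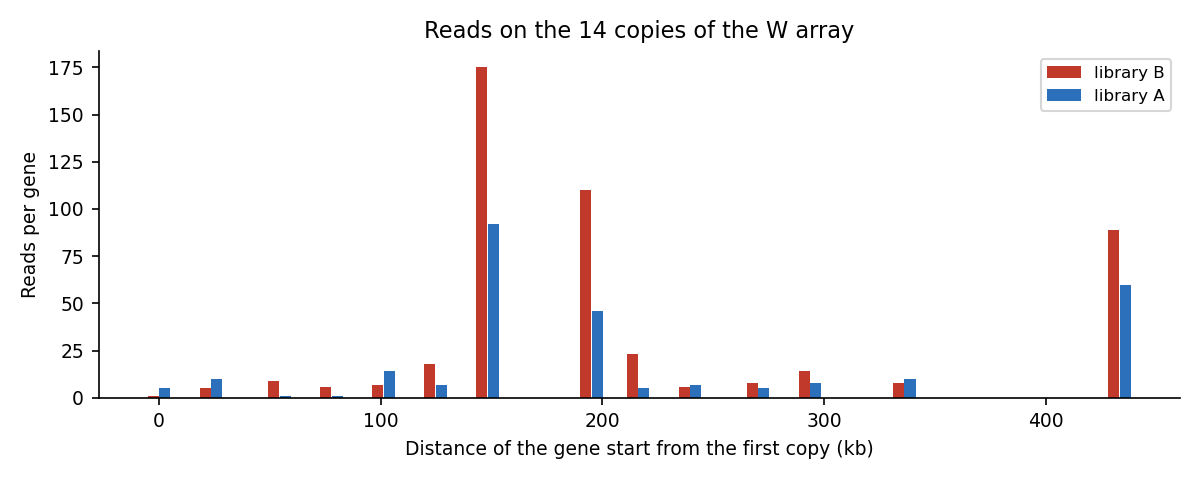
Reads in library B (left bar of each pair) and library A (right bar) on the 14 array genes, placed by the distance of their start from the first copy in kb. The 3 tall pairs hold 78.1% of the array's reads in library B and 73.1% in library A.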

How the data were processed

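Per the file headers, the authors ran featureCounts 2.1.1 over the exons of their own annotation and deposited unnormalized read counts for each gene. The recorded command sets no option for strand, for counting fragments or for multi-mapping reads, so mates were counted separately and reads with several placements were left out. The submitters' processing notes also name HISAT2 and SAMtools, with no version. The alignment names in the headers differ from the library names of the labels, and files follow the deposit's own pairing.

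Library sizes were multiplied by edgeR 4.0.16 (R 4.3.3) TMM factors (1.003 for library B and 0.997 for library A). RPKM were averaged over both libraries. Log2 ratios (B over A) were taken with a prior count of 2, for genes with at least 10 reads in 1 library. Intervals are exact 95% binomial intervals from counts halved to fragments, with odd counts rounded down, and cover counting error only. Exon structures were compared in Python 3.11.15. The scaling and the structure search were tested on simulated data, as a check of the code only. The planted structures were copies of real ones. The genes changed in the simulation had at least 100 reads over both libraries, so genes with few reads were not covered.

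The members, lists and rules were chosen with earlier results of these data known. Genes described singly are those with a Z match or a shared structure, the 5 highest and 3 lowest by level, those past the 2-fold rule and those at the ends of W. The genes given as unmatched, the array copies with most reads and single introns were chosen after their values were seen. Alternatives covered scaling, read minimums, depth and matching rules. Marker genes were not evaluated, since no ID matched a symbol.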

Additional observations from a re-analysis of the deposited data

How the results depend on the processing

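For 11 results 40 alternatives were run. Of these, 29 stayed inside the interval of the value, or inside 1.5 times a count, and 11 went beyond. Direction changed in 0, but levels, shares and counts have no direction to change. The share of reads on W, 0.120% in library B and 0.121% in library A, became 0.144% and 0.145% without the 10 most abundant genes, since the total shrinks, and 0.0880% and 0.0872% without the W gene with most reads. W genes at least 2-fold apart numbered 3, and 5 with no minimum of reads or 0 with at least 50 reads, which fewer genes reach. They numbered 4 with a prior count of 0.5 and 2 with library B thinned. Only the main count, 3 of 48 (6.25%), has a share over all tested genes beside it (0.755%). The counts under the other settings have no such background here. W genes with a Z match numbered 8 by equal inner lengths, 17 by a run of 4, 13 by a run of 6, and, by rules added after seeing the data, 17 by 50% of inner lengths at the same position and 24 by any rule, since looser rules admit more genes. W genes sharing inner lengths with another W gene numbered 0 with at least 4 exons and 14 with at least 3, which admits the array. For the library ratios of 8 single genes, 32 of 32 alternatives stayed inside the counting interval, though thinning ended the 2-fold call of the gene at 13470526. No paired analysis was possible because there is 1 library to a label, and no replicate could be left out. Depth limits the array copies, 11 of which had at most 23 reads in either library.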
